A study of Mus musculus with 8 samples.

Results

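The 9 genes described here are known from lymphoid organiser stroma. They encode the adhesion molecules Madcam1, Vcam1 and Icam1, the TNF family ligands Tnfsf11 and Tnfsf13b, the chemokines Cxcl13 and Ccl19, the transcription factor Spib and the ectoenzyme Bst1. They were taken by gene symbol from a table of 52110 rows with a symbol, and all 9 were found in it. Of these, 8 passed the low-count filter, as 17360 genes did in all, and Ccl19 did not. The genes were chosen by their measured levels and log2 changes under TWEAK in these same libraries, so these values are given as a description and no p-value is attached to them. Primary fibroblasts of WT mouse lung, grown in DMEM with fetal bovine serum, received no treatment, or recombinant TWEAK protein for 48 h at 10, 30 or 100 ng/ml, before RNA was sequenced. TWEAK is the TNF family cytokine encoded by Tnfsf12, and its receptor Fn14 is encoded by Tnfrsf12a. Each of the 4 groups had 2 libraries. The labels do not say whether these were separate cultures or animals, so the spread between them may be technical.

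Lymphoid organiser cells are stromal cells that gather and hold lymphocytes where lymph nodes, Peyer's patches and, in inflamed lung, tertiary lymphoid follicles form. Lymphotoxin and other TNF family ligands act on them through receptors that stabilise the kinase NIK and release the RelB and p52 subunits of NF-kB, the non-canonical pathway, which the TWEAK receptor also engages. The cells then display adhesion molecules that hold lymphocytes through integrins, secrete chemokines that position B and T cells, and supply TNF family survival factors.

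Libraries held between 37278985 and 50810783 counts, so that 3 counts stood for between 0.0599 and 0.0802 CPM, the count scaled to library size after TMM normalization. The fibroblast label was checked against 6 fibroblast markers, Col1a1, Col1a2, Col3a1, Pdgfra, Dcn and Thy1, all of which were detected in every group. Across all genes, edgeR called 5075 genes (29.2%) at 10 ng/ml against untreated, 4041 (23.3%) at 30 ng/ml and 194 (1.12%) at 100 ng/ml, at a Benjamini-Hochberg adjusted p under 0.05. These counts fell without 1 library in places, to 2540 at 30 ng/ml and 91 at 100 ng/ml without untreated replicate 1, to 2661 and 116 without untreated replicate 2, to 2622 at 30 ng/ml without TWEAK30 replicate 1, and at 100 ng/ml to 106 and 125 without TWEAK100 replicate 1 and 2. In bulk RNA, fewer cells of a type and less RNA per cell cannot be told apart.

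The promoters of 4 of the genes are printed because these genes were called higher at all 3 doses, Madcam1, Spib and Tnfsf11 being low without TWEAK and Icam1 already abundant. Each runs 5′ to 3′ on the strand of the gene, from 250 bases before to 50 bases after a transcription start given by RefSeq on GRCm38.p6. Madcam1 is at chr10:79664309-79664608 on the plus strand, Spib at chr7:44532022-44532321 on the minus strand, Icam1 at chr9:21015690-21015989 on the plus strand and Tnfsf11 at chr14:78307994-78308293 on the minus strand. Capitals mark each match, on either strand, to an NF-kB-like motif, GGG and CC with any 5 bases between them.
Madcam1: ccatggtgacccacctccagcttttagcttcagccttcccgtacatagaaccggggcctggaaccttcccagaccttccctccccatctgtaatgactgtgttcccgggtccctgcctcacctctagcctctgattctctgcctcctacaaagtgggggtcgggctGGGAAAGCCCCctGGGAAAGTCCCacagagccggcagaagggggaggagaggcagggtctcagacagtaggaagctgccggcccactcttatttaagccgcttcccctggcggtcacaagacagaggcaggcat
Spib: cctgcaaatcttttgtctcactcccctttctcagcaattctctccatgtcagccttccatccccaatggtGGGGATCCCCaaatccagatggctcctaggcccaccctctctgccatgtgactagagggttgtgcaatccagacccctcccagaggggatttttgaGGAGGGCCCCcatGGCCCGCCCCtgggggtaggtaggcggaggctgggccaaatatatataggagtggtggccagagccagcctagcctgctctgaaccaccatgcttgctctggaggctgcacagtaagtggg
Icam1: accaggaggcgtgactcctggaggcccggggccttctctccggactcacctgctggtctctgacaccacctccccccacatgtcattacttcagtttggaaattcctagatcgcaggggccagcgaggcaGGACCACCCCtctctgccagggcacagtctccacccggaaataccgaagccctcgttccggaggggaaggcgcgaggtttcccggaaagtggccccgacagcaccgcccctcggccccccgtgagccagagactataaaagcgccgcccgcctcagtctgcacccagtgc
Tnfsf11: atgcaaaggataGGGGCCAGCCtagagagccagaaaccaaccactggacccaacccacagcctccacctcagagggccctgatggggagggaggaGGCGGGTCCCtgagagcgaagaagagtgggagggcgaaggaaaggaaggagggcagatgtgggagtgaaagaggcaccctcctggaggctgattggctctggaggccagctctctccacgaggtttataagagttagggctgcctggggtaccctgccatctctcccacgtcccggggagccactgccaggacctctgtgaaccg

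The Madcam1 promoter held the motif at 84 and 71 bases before the start, and each place also matched on the opposite strand 1 base along, so that the capitals run together. The Spib promoter held it at 180, 84 and 71 bases before the start, the Icam1 promoter at 120 bases, and the Tnfsf11 promoter at 238 and 155 bases. RefSeq promoters were matched for 7 of the genes, 8 promoters in all since Tnfsf13b had 2. No promoter was matched for Bst1 or Vcam1. The NF-kB-like motif was in 6 of these 8 promoters and in 50.8% of 32851 promoters of 300 bases. GAGGAA, the box bound by Spib and its relative PU.1, was in 0 of 8 and in 28.3% of all promoters. TGANTCA, the AP-1 motif, was in 2 of 8 and in 7.81% of all promoters. Both were promoters of Tnfsf13b, which overlap and hold the same single site, so only 1 of the 7 genes had it. All motifs were searched on both strands, and a match describes the letters and not a bound site.

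Among the 9 genes, 6 were called higher at 10 ng/ml than in untreated cells, namely Madcam1, Spib, Bst1, Tnfsf11, Vcam1 and Icam1, where 15% of all tested genes were called higher. The same 6 genes were called higher at 30 ng/ml, where 12.6% of tested genes were. At 100 ng/ml only Madcam1, Spib, Tnfsf11 and Icam1 were called higher, where 0.812% of tested genes were. None of the 8 that were tested was called lower against untreated cells at any dose. Madcam1 and Bst1, with 8 counts each in untreated cells, and Spib, with 38, passed the count filter through the TWEAK groups alone. They could hardly be called lower. The choice of the genes used these comparisons, so nothing is read from the numbers of genes called.

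**Figure D1:**
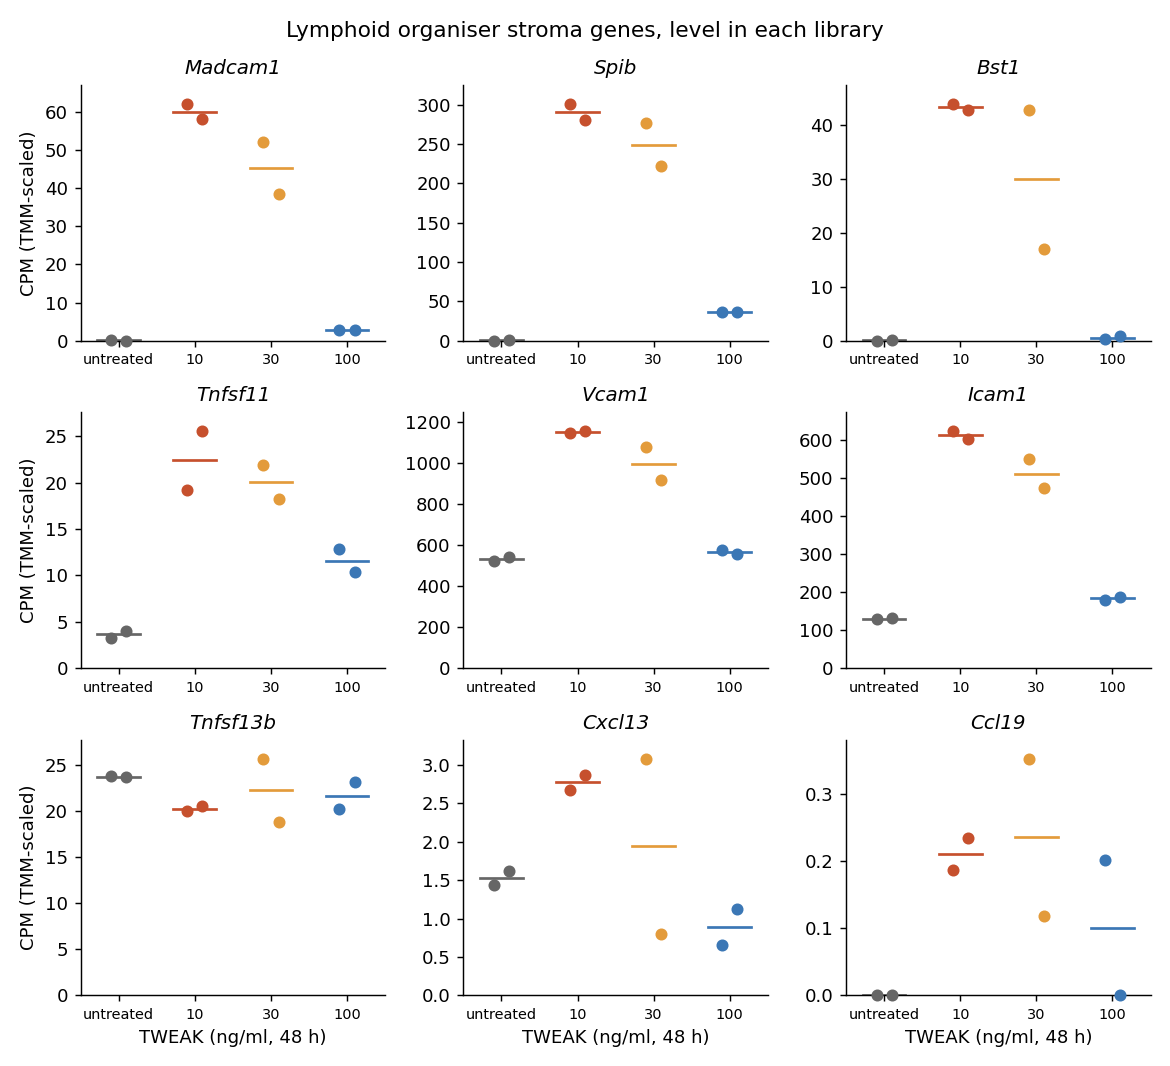
Level of each of the 9 genes in CPM (counts scaled to library size by TMM, linear axes from 0) in untreated cells and at 10, 30 and 100 ng/ml TWEAK. Points are the 2 libraries of a group and lines their mean. Madcam1, Spib and Bst1 lie near 0 in untreated cells and high at 10 and 30 ng/ml, while Tnfsf13b lies between 18.8 and 25.7 CPM in every library.

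Madcam1, the vascular addressin that binds the lymphocyte integrin made of Itga4 and Itgb7, is carried by gut endothelium and by organiser stroma. It had 0.160 and 0 CPM in untreated libraries, 62.0 and 58.0 CPM at 10 ng/ml, 52.1 and 38.4 CPM at 30 ng/ml, and 2.89 and 2.68 CPM at 100 ng/ml. All treated libraries lay above both untreated libraries, and those at 100 ng/ml lay far below those at the lower doses. The untreated group held 8 counts in all, so its level at 10 ng/ml was 747-fold higher with a 95% counting interval from 379 to 1732, which covers counting error only. The ratio was 34.8 at 100 ng/ml, with an interval from 17.3 to 81.5. The fitted log2 change was 9.50 ± 0.47 (SE) at 10 ng/ml, 9.09 ± 0.46 at 30 ng/ml and 5.07 ± 0.53 at 100 ng/ml. Without untreated replicate 1 these values were 14.32, 13.91 and 9.89, and without untreated replicate 2 they were 8.52, 8.12 and 4.10. The call at 100 ng/ml was not made by limma-voom or in a fit of only these groups. The gene lies on chromosome 10 from 79664559 to 79668537 on mm10, with 5 exon blocks and no exon shared with another gene.

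Vcam1, which binds the integrin made of Itga4 and Itgb1 on lymphocytes, was abundant before any TWEAK was given. It had 524 and 543 CPM in untreated libraries, 1150 and 1157 CPM at 10 ng/ml, 1081 and 917 CPM at 30 ng/ml, and 577 and 559 CPM at 100 ng/ml. The libraries at 100 ng/ml lay just above the untreated ones, while those at 10 and 30 ng/ml lay clear of both. Its log2 change was 1.11 ± 0.08 (SE) at 10 ng/ml, 0.91 ± 0.08 at 30 ng/ml and 0.09 ± 0.08 at 100 ng/ml, where it was not called. Its exons, on chromosome 3 from 116109949 to 116129688, overlap those of Gm43109, which averaged at most 0.163 CPM in any group.

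Icam1 encodes the ligand of the leukocyte integrin LFA-1. Levels were 129 and 132 CPM in untreated libraries, 623 and 602 CPM at 10 ng/ml, 551 and 473 CPM at 30 ng/ml, and 180.1 and 187 CPM at 100 ng/ml. No group overlapped another. The log2 change was 2.23 ± 0.08 (SE) at 10 ng/ml, 1.97 ± 0.08 at 30 ng/ml and 0.49 ± 0.08 at 100 ng/ml. The call at 100 ng/ml was lost when any 1 of the libraries untreated, at 10 ng/ml or at 100 ng/ml was left out, with log2 changes of 0.46 to 0.52. The gene lies on chromosome 9 from 21015985 to 21028817, and its exons overlap those of the predicted gene Gm47079 on the other strand. No level was found for Gm47079 under that symbol, and the part of its reads in Icam1 was not tested.

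Spib, an Ets family transcription factor of B cells, plasmacytoid dendritic cells and gut M cells, was barely detected without TWEAK. It had 0.200 and 0.562 CPM in untreated libraries, 300.9 and 280.4 CPM at 10 ng/ml, 276 and 222 CPM at 30 ng/ml, and 37.1 and 36.9 CPM at 100 ng/ml. All 4 groups were apart from each other. Over 38 untreated counts, the level at 10 ng/ml was 762-fold higher (counting interval 555 to 1078) and at 100 ng/ml 97.3-fold higher (70.7 to 138). The fitted log2 change was 9.57 ± 0.31 (SE) at 10 ng/ml, 9.35 ± 0.30 at 30 ng/ml and 6.59 ± 0.29 at 100 ng/ml. Without untreated replicate 2, the library with the higher count, it was 10.48, 10.26 and 7.51. Spib lies on chromosome 7 from 44525993 to 44532071.

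Bst1, an ectoenzyme of NAD metabolism also called BP-3, marks stromal cells that support lymphocytes. It had 0 and 0.161 CPM in untreated libraries, 43.8 and 42.7 CPM at 10 ng/ml, 42.7 and 17.0 CPM at 30 ng/ml, and 0.251 and 0.901 CPM at 100 ng/ml. The libraries at 30 ng/ml differed 2.52-fold, and one of them lay with those at 10 ng/ml. In all, 8 untreated counts, 3465 counts at 10 ng/ml and 46 counts at 100 ng/ml were behind these values. The level was 540-fold higher at 10 ng/ml than in untreated cells (counting interval 274 to 1251) and 7.20-fold higher at 100 ng/ml (3.37 to 17.7), where the gene was not called. Fitted log2 changes were 9.03 ± 0.85 (SE), 8.49 ± 0.84 and 2.80 ± 1.18 at 10, 30 and 100 ng/ml. These changes rest on few untreated counts, all from a single library. Without untreated replicate 2 the changes at 10 and 30 ng/ml were 13.84 and 13.31, and without untreated replicate 1 they were 8.05 and 7.51. Without TWEAK30 replicate 1 the change at 30 ng/ml was 7.67. The calls at 10 and 30 ng/ml were not made by limma-voom. Bst1 lies on chromosome 5 from 43818885 to 43843986, and its exons overlap those of Fbxl5 on the other strand. Fbxl5 averaged 57.9 CPM in untreated cells and 78.1, 71.6 and 56.2 CPM at 10, 30 and 100 ng/ml. Whether strand was used in counting is not given in the sources used here, and the part of Fbxl5 reads in Bst1 was not tested.

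Tnfsf11 encodes RANKL, which drives osteoclast formation, lymph node organogenesis and, in gut epithelium, M cell differentiation. Tnfsf11 levels were 3.28 and 3.97 CPM in untreated libraries, 19.3 and 25.6 CPM at 10 ng/ml, 21.9 and 18.3 CPM at 30 ng/ml, and 12.8 and 10.3 CPM at 100 ng/ml. Libraries at 10 and 30 ng/ml overlapped, and those at 100 ng/ml lay between them and the untreated ones. The log2 change was 2.63 ± 0.20 (SE) at 10 ng/ml, 2.47 ± 0.20 at 30 ng/ml and 1.68 ± 0.20 at 100 ng/ml. The call at 100 ng/ml was lost without TWEAK100 replicate 1 or untreated replicate 1, at log2 changes of 1.51 and 1.54. It lies on chromosome 14 from 78277445 to 78308043.

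Tnfsf13b encodes BAFF, the survival factor of mature B cells. It had 23.8 and 23.7 CPM in untreated libraries, 20.0 and 20.6 CPM at 10 ng/ml, 25.7 and 18.8 CPM at 30 ng/ml, and 20.3 and 23.1 CPM at 100 ng/ml. The libraries at 10 and 100 ng/ml lay below both untreated libraries by small margins, and those at 30 ng/ml lay on either side. Its log2 change was -0.23 ± 0.15 (SE), -0.09 ± 0.15 and -0.13 ± 0.15 at 10, 30 and 100 ng/ml, and it was called at none of them.

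Cxcl13, which attracts B cells and follicular helper T cells through Cxcr5, had few counts, 153 in untreated cells, 223 at 10 ng/ml, 174 at 30 ng/ml and 71 at 100 ng/ml. Its levels were 1.44 and 1.63 CPM in untreated libraries, 2.67 and 2.88 CPM at 10 ng/ml, 3.08 and 0.803 CPM at 30 ng/ml, and 0.654 and 1.13 CPM at 100 ng/ml. Libraries at 10 ng/ml lay above the untreated ones, those at 100 ng/ml below them, and those at 30 ng/ml on both sides. The log2 change was 0.86 ± 0.56 (SE), 0.35 ± 0.56 and -0.78 ± 0.58, and the gene was called in none of these comparisons. Without TWEAK30 replicate 1 the change at 30 ng/ml was -0.93.

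Ccl19, a ligand of Ccr7 that draws T cells and dendritic cells, was near the detection limit. It had 0 counts in both untreated libraries, which allows up to 0.0602 CPM in each, 17 counts at 10 ng/ml, 21 at 30 ng/ml and 8 at 100 ng/ml. These were 0.187 and 0.234 CPM at 10 ng/ml, 0.352 and 0.118 CPM at 30 ng/ml, and 0.201 and 0 CPM at 100 ng/ml. Against 3 counts over the untreated group, its level was at least 7.06-fold higher at 10 ng/ml, 7.97-fold at 30 ng/ml and 3.34-fold at 100 ng/ml. The last bound rests on 1 library, since the other had no count. These bounds take the counts under TWEAK as exact. In a fit without the low-count filter Ccl19 was tested and was called at none of the 3 doses.

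**Figure D2:**
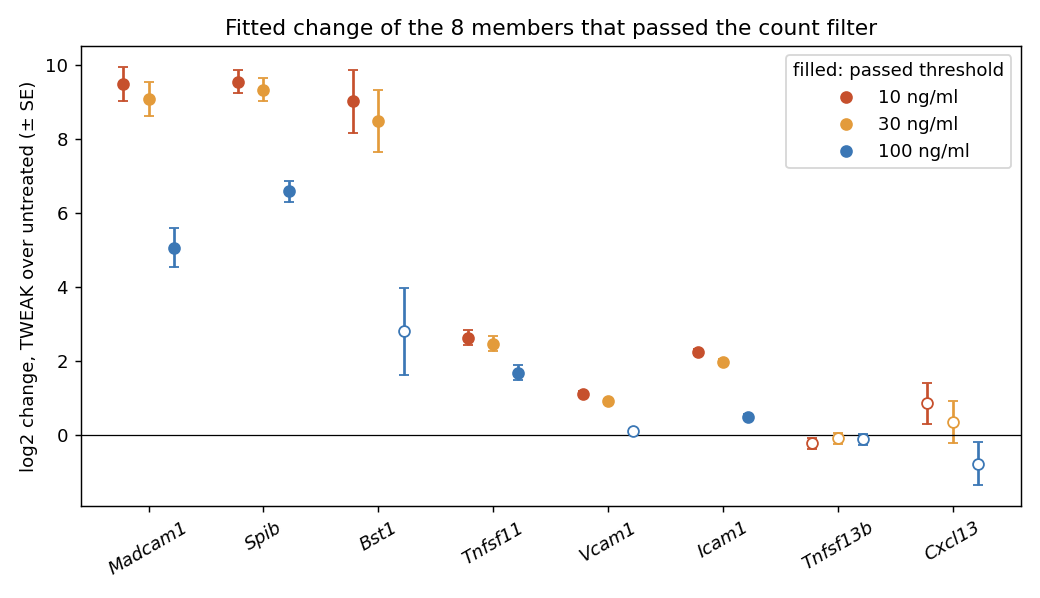
Fitted log2 change over untreated cells (edgeR, error bars 1 SE) of the 8 genes that passed the low-count filter at 10, 30 and 100 ng/ml, with filled points past the threshold. Madcam1, Spib and Bst1 lie between 8.49 and 9.57 at the 2 lower doses, and every called gene has its smallest change at 100 ng/ml.

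Doses are given as the labels state them, and the labels were not checked by another measure. Fewer genes of the whole table were called at 100 ng/ml against untreated cells (194) than against 10 ng/ml (3816) or 30 ng/ml (2637). Between doses, the same 6 genes were called lower at 100 than at 10 ng/ml, where 22% of all tested genes were called and 11.2% were lower, and lower at 100 than at 30 ng/ml, where 15.2% were called and 8.04% were lower. The mean CPM at 100 ng/ml was 1.33% of that at 10 ng/ml for Bst1, 4.64% for Madcam1 and 12.7% for Spib. It was 29.9% for Icam1, 49.2% for Vcam1 and 51.7% for Tnfsf11. Untreated cells had 21.29%, 46.25% and 16.17% of the level at 10 ng/ml for these, and 0.186%, 0.133% and 0.131% for Bst1, Madcam1 and Spib. A gene back at its untreated level would keep that share, so shares at 100 ng/ml do not compare the genes on equal terms. In log2 terms, 100 against 10 ng/ml gave -6.22 ± 0.68 (SE) for Bst1, -4.43 ± 0.31 for Madcam1, -2.97 ± 0.21 for Spib, -1.74 ± 0.08 for Icam1, -1.02 ± 0.08 for Vcam1 and -0.95 ± 0.19 for Tnfsf11. The Bst1 value was -5.58 without TWEAK100 replicate 1 and -7.41 without TWEAK100 replicate 2, and these libraries differed 3.58-fold. The Tnfsf11 call was lost without TWEAK10 replicate 2 (-0.73) or TWEAK100 replicate 2 (-0.81), and its call between 100 and 30 ng/ml was lost without TWEAK30 replicate 1 or either library at 100 ng/ml. Cxcl13 had a log2 difference of -1.64 ± 0.58 between 100 and 10 ng/ml and was not called, although DESeq2 called it. A fit of only these groups, like DESeq2, called 7 of the 9 genes in this comparison. Tnfsf13b had a log2 difference of 0.10 ± 0.15 and was not called. These comparisons share their groups with those against untreated cells and use the doses that chose the genes, so they are not separate evidence.

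No member was called between 30 and 10 ng/ml, and edgeR called 0 genes of the whole table in that comparison, where 1208 had an unadjusted p under 0.05, DESeq2 called 127 and limma-voom called 0. Madcam1, Spib, Vcam1 and Icam1 were lower in both libraries at 30 ng/ml than in either at 10 ng/ml, as were 17.9% of all tested genes, with log2 differences of -0.41 ± 0.26 (SE) for Madcam1, -0.22 ± 0.19 for Spib, -0.21 ± 0.08 for Vcam1 and -0.26 ± 0.08 for Icam1. Within the 30 ng/ml group, TWEAK30 replicate 2 was the lower library for all 9 genes. The share of all tested genes lower in that library was not counted, so this is not read as a trait of the 9 genes. The gap between the 2 libraries at 30 ng/ml was widest for Cxcl13 at 3.84-fold, Ccl19 at 2.99-fold and Bst1 at 2.52-fold. Of all tested genes 8.80% differed more than 2-fold between these libraries.

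**Figure D3:**
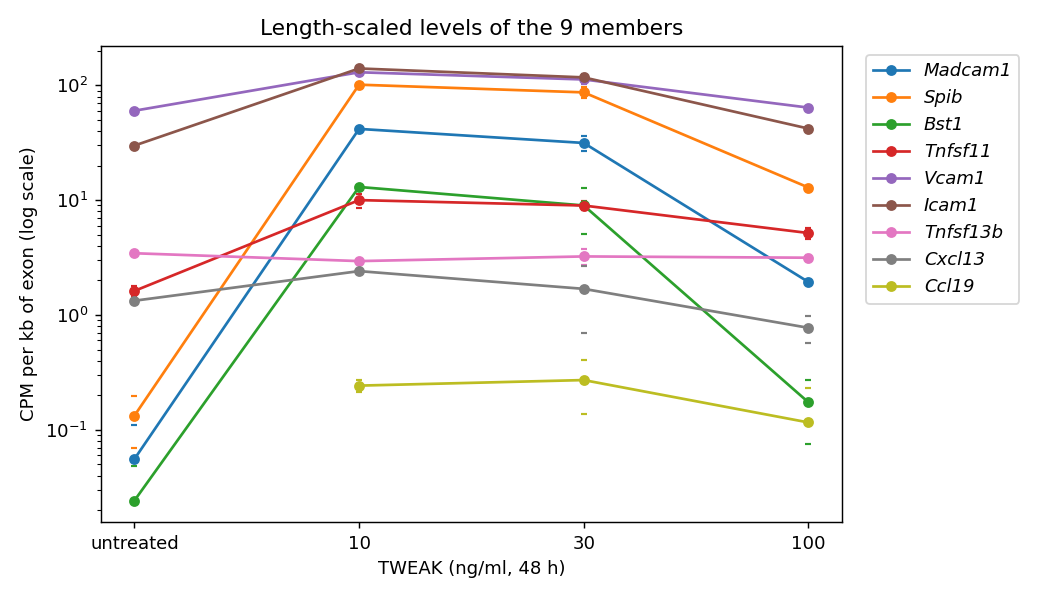
Level per length (CPM per kb of annotated exon, log scale) of the 9 genes in untreated cells and at 10, 30 and 100 ng/ml TWEAK, with points for group means and short bars for libraries. Values of 0 cannot be drawn, so Ccl19 in untreated cells is left out. Icam1, Vcam1 and Spib are the highest at 10 ng/ml, at 140.4, 130.1 and 101.4 CPM per kb.

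Levels of different genes were compared per kb of exon. In untreated cells Vcam1 led with 60.2 CPM per kb, before Icam1 with 29.9, Tnfsf13b with 3.45, Tnfsf11 with 1.62 and Cxcl13 with 1.33. Spib, Madcam1, Bst1 and Ccl19 were the 4 lowest, and each overlapped its neighbour in that order, while both Spib libraries lay above those of Bst1 and Ccl19. At 10 ng/ml the order was Icam1 with 140.4 CPM per kb, Vcam1 with 130.1, Spib with 101.4, Madcam1 with 41.8, Bst1 with 13.0, Tnfsf11 with 10.0, Tnfsf13b with 2.95, Cxcl13 with 2.41 and Ccl19 with 0.243, and no neighbours overlapped. Spib, near the bottom in untreated cells, thus stood close to the adhesion molecules per length. At 30 ng/ml the libraries of Icam1 and Vcam1 overlapped, as did those of Bst1 and Tnfsf11. At 100 ng/ml Vcam1 again led with 64.0 CPM per kb, followed by Icam1 with 42.1, Spib with 12.9 and Tnfsf11 with 5.18, while Madcam1 had 1.94 and Bst1 0.174, and only Bst1 and Ccl19 overlapped.

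The 7 lists of other genes were drawn up with earlier results of these data known. Up to 4 genes per list are named, those called at 10 ng/ml with the lowest p. List counts, list medians and the p-values of named genes are therefore a description and not separate evidence. Receptors, kinases and NF-kB subunits upstream of organiser genes, a list of 19 that were all tested, had 10 higher and 3 lower at 10 ng/ml, 12 and 4 at 30 ng/ml, and 3 and 0 at 100 ng/ml. Their median log2 change was 0.63, 0.49 and 0.04, beside 0.01, 0.01 and 0.00 over all genes, of which 15% were higher and 14.2% lower at 10 ng/ml, 12.6% and 10.7% at 30 ng/ml, and 0.812% and 0.305% at 100 ng/ml. Nfkb2, the precursor of p52, averaged 415 ± 9.98 CPM at 10 ng/ml and 60.4 ± 1.55 CPM in untreated cells (SD, n = 2 each), and its level at 100 ng/ml fell by 1.66 on the log2 scale against 10 ng/ml (edgeR adjusted p = 1.93e-05). Nfkbia, the inhibitor of canonical NF-kB, averaged 197 ± 1.68 CPM at 10 ng/ml and 30.0 ± 1.34 CPM in untreated cells (log2 change 2.72 ± 0.13, adjusted p = 6.8e-06 by edgeR). Birc2 and Birc3, ubiquitin ligases that hold NIK low, rose by 2.39 ± 0.11 (edgeR adjusted p = 7e-06) and 2.09 ± 0.09 (edgeR adjusted p = 4.05e-06) on that scale at 10 ng/ml. At 100 ng/ml the call of Birc2, a log2 change of 0.82 ± 0.11, was lost without either library at 100 ng/ml or either untreated library. Relb, Ltbr and Map3k14 were added outside that rule, after their values were seen. Relb rose at 10 ng/ml (2.01 ± 0.12, edgeR adjusted p = 1.86e-05). Ltbr, the lymphotoxin receptor, fell to 141 ± 1.55 CPM against 194 ± 11.1 CPM in untreated cells (edgeR adjusted p = 0.00161). Map3k14, which encodes NIK, rose by 0.42 ± 0.09 (edgeR adjusted p = 0.00978). The Map3k14 call was lost without TWEAK10 replicate 1 or untreated replicate 2. Tnfrsf12a itself averaged 32.8 ± 0.704 CPM at 10 ng/ml and 19.2 ± 0.796 CPM in untreated cells (edgeR adjusted p = 0.00536).

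Of 5 other TNF family ligands that act on organiser stroma only Tnfsf12 was tested. It averaged 24.6 ± 1.38 CPM at 10 ng/ml and 33.5 ± 0.161 CPM in untreated cells (log2 change -0.44 ± 0.11, edgeR adjusted p = 0.0171), and this call was lost without TWEAK10 replicate 2 or either untreated library. It was also called lower at 30 ng/ml, though not without TWEAK30 replicate 1 or either untreated library, and was not called at 100 ng/ml. Its exons overlap those of Tnfsfm13. Tnfsf14, which encodes LIGHT, had 0 counts in every library.

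Other chemokines and survival factors of lymphoid stroma had 7 higher and 3 lower among 13 tested of 16 at 10 ng/ml, 6 and 1 at 30 ng/ml, and 3 and 0 at 100 ng/ml, with median log2 changes of 0.93, 0.59 and 0.32. The shares of all genes at these doses were 15% and 14.2%, 12.6% and 10.7%, and 0.812% and 0.305%. Cxcl16, whose receptor is Cxcr6, averaged 296 ± 11.6 CPM at 10 ng/ml and 38.0 ± 0.264 CPM in untreated cells (log2 change 2.96 ± 0.08, edgeR adjusted p = 1.3e-06), and its exons overlap those of Zmynd15. Csf1, the macrophage growth factor, averaged 889 ± 38.6 CPM at 10 ng/ml and 292 ± 13.2 CPM in untreated cells (1.61 ± 0.08, edgeR adjusted p = 9.12e-06). Il33, a cytokine of stromal cells, and Ccl2, a monocyte chemokine, were lower at 100 than at 10 ng/ml by log2 differences of -1.86 ± 0.12 (edgeR adjusted p = 5.48e-05) and -2.03 ± 0.16 (edgeR adjusted p = 0.000125). Il6, chosen after its values were seen, moved the other way to Tnfsf11 and the adhesion genes, with 7.70 ± 0.565 CPM at 10 ng/ml and 29.5 ± 2.05 CPM in untreated cells (edgeR adjusted p = 0.000939). Ccl21a, the other Ccr7 ligand, had 0 counts in every library.

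Markers of reticular and follicular dendritic cell stroma had 8 higher and 7 lower of 20 at 10 ng/ml, 8 and 6 at 30 ng/ml, and 5 and 0 at 100 ng/ml, with median log2 changes of 0.26, 0.21 and -0.03. Shares of all genes were 15% and 14.2%, 12.6% and 10.7%, and 0.812% and 0.305%. The 7 lower at 10 ng/ml were Pdgfrb (-0.86), Thy1 (-1.34), Ly6a, Prnp, Clu, Lepr and Tnc. Cr2 and Fcgr2b averaged 0.681 and 0.175 CPM there and were not called. Genes described next had the lowest p, and all were higher, so they do not stand for the list. Enpp2, or autotaxin, which makes lysophosphatidic acid, averaged 274 ± 17.7 CPM at 10 ng/ml and 18.5 ± 2.10 CPM in untreated cells (log2 change 3.89 ± 0.15, edgeR adjusted p = 3.75e-06). Mfge8, a follicular dendritic cell product that binds apoptotic cells, averaged 1828 ± 101.2 CPM at 10 ng/ml and 303 ± 6.79 CPM in untreated cells (2.59 ± 0.12, edgeR adjusted p = 7.02e-06). Pdpn, the podoplanin of reticular cells, averaged 964 ± 16.5 CPM at 10 ng/ml and 486 ± 19.7 CPM in untreated cells (0.99 ± 0.05, edgeR adjusted p = 9.46e-06). Cd34, a sialomucin of stromal progenitors and endothelium, was lower at 100 than at 10 ng/ml by a log2 difference of -3.04 ± 0.22 (edgeR adjusted p = 8.77e-05). Against untreated cells at 100 ng/ml, the call of Pdpn (log2 change 0.39 ± 0.05) was lost without either library at 100 ng/ml or untreated replicate 1, and that of Cd34 (1.48 ± 0.23) without any 1 of the libraries untreated, at 10 ng/ml or at 100 ng/ml. Exons of Enpp2 and Cd34 overlap those of predicted genes.

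Other leukocyte adhesion molecules and genes of high endothelial venules had 2 higher and 1 lower of 4 tested among 10 at 10 and at 30 ng/ml, and none called at 100 ng/ml, with median log2 changes of 0.63, 0.49 and 0.04. Beside these, 15% of all genes were higher and 14.2% lower at 10 ng/ml, and 12.6% and 10.7% at 30 ng/ml. Chst2, a sulfotransferase of L-selectin ligands, averaged 42.2 ± 4.11 CPM at 10 ng/ml and 10.7 ± 2.23 CPM in untreated cells (log2 change 1.98 ± 0.18, edgeR adjusted p = 0.000127). Alcam, a ligand of CD6, averaged 129 ± 20.0 CPM at 10 ng/ml and 59.7 ± 4.6 CPM in untreated cells (1.12 ± 0.12, edgeR adjusted p = 0.000319). Jam2, a junctional adhesion molecule, fell to 67.0 ± 5.28 CPM at 10 ng/ml, against 223 ± 1.49 CPM in untreated cells (edgeR adjusted p = 2.18e-05), the opposite direction to Vcam1 and Icam1. Glycam1 and Chst4, genes of high endothelial venules, had 0 counts in every library.

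Among 13 receptors and binding partners of the 9 genes, 7 were tested. At 10 and at 30 ng/ml 1 was called higher and 1 lower, and none at 100 ng/ml, with median log2 changes of 0.27, 0.20 and -0.09. Of all tested genes 15% were higher and 14.2% lower at 10 ng/ml, and 12.6% and 10.7% at 30 ng/ml. These counts were thus near the share of all genes. Itgb1, a subunit of the integrin that binds Vcam1, averaged 969 ± 40.8 CPM at 10 ng/ml and 1126 ± 18.4 CPM in untreated cells (log2 change -0.22 ± 0.05, edgeR adjusted p = 0.0137), and lost this call without TWEAK10 replicate 1 or either untreated library. Ccr7, the receptor of Ccl19, had 23 counts at 10 ng/ml and 0 counts in untreated cells, at least 9.55-fold higher, and its call was lost when any 1 of the libraries untreated, at 10 ng/ml or at 100 ng/ml was left out. With 0 counts in untreated cells, Ccr7 passed the count filter through the TWEAK groups alone and could only be called higher. Tnfrsf13b and Tnfrsf17, receptors of the BAFF family, had 0 counts in every library.

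Ets relatives and partners of Spib, together with genes of M cells that need Spib, had 4 higher and 0 lower of 5 tested among 10 at 10 and at 30 ng/ml, and 1 higher at 100 ng/ml, with median log2 changes of 2.77, 2.66 and 1.41. All tested genes had 15% higher and 14.2% lower at 10 ng/ml, 12.6% and 10.7% at 30 ng/ml, and 0.812% and 0.305% at 100 ng/ml. Spic, the Ets factor most related to Spib and Spi1 and known from splenic macrophages, had 0 counts in untreated cells and averaged 10.3, 8.0 and 1.14 CPM at 10, 30 and 100 ng/ml. It therefore passed the count filter through the TWEAK groups alone and could not be called lower. Its level was thus at least 341-, 267- and 38.0-fold higher at these doses (edgeR adjusted p = 1.53e-05, 3.02e-05 and 0.00306), though limma-voom and a fit of only these groups made no call at 100 ng/ml. Ccl9, a chemokine of M cell epithelium, averaged 28.9 ± 0.357 CPM at 10 ng/ml and 0.731 ± 0.154 CPM in untreated cells (log2 change 5.30 ± 0.32, edgeR adjusted p = 1.88e-05). Tnfaip2, an M cell gene, averaged 446 ± 33.6 CPM at 10 ng/ml and 221 ± 10.9 CPM in untreated cells (1.01 ± 0.08, edgeR adjusted p = 4.51e-05), with exons that overlap those of Gm40578. Irf8, a partner of PU.1-type Ets factors, averaged 12.6 ± 4.92 CPM at 10 ng/ml and 1.85 ± 0.246 CPM in untreated cells (2.77 ± 0.31, edgeR adjusted p = 0.000369). Pou2af1, a B cell coactivator, and Gp2, a receptor of mature M cells, had 0 counts in every library. Over all 7 lists, 12 genes were called at 100 ng/ml, against 22 by DESeq2, and 7 were called without TWEAK100 replicate 1 or untreated replicate 1.

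**Figure D4:**
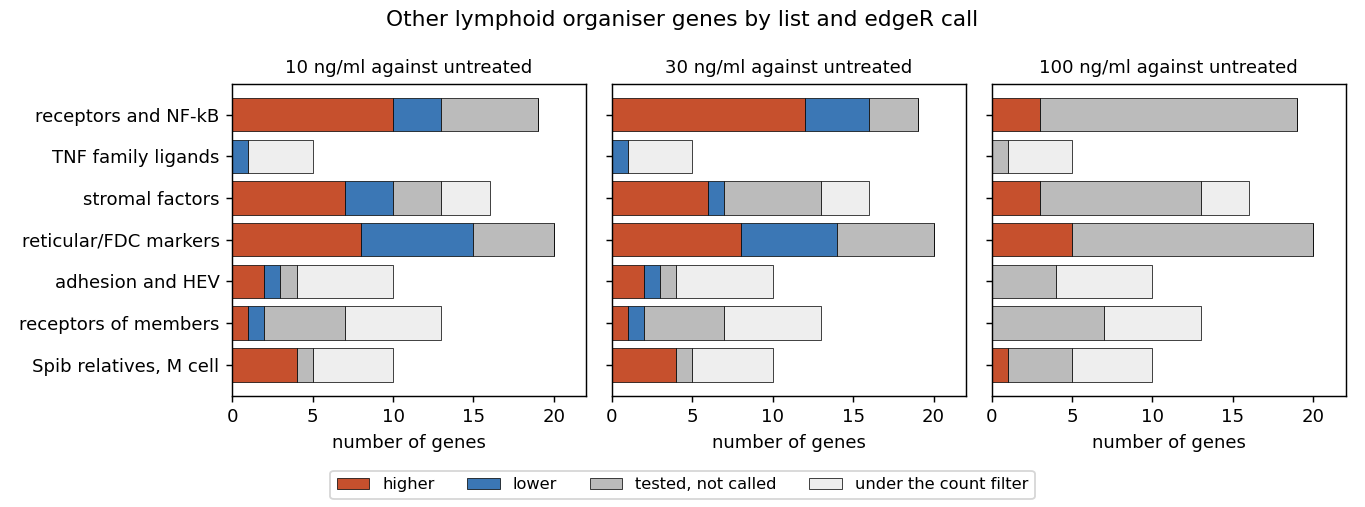
Number of genes in each of 7 lists of other lymphoid organiser genes (bars from 0) that edgeR called higher or lower, tested without a call, or left out by the count filter, at 10, 30 and 100 ng/ml TWEAK against untreated cells. Over the lists, 32 of 69 tested genes were higher and 16 lower at 10 ng/ml, 33 and 14 at 30 ng/ml, and 12 and 0 at 100 ng/ml. Over all tested genes, the shares at these doses were 15% and 14.2%, 12.6% and 10.7%, and 0.812% and 0.305%.

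Markers of other cells were low and moved with the doses in part. Summed over 9 lymphocyte markers, levels were 0.120 to 0.320 CPM in untreated libraries and 0.534 to 1.12, 0.425 to 1.12 and 0.601 to 0.779 CPM at 10, 30 and 100 ng/ml, with Cd3e, Cd3d and Cd8a at 0 throughout. Each of the 9 lymphocyte markers was under 1 CPM in every group, beside Spib at 290.7 CPM at 10 ng/ml. The sum of 8 macrophage and dendritic cell markers was 11.7 to 15.4 CPM in untreated libraries and 25.7 to 29.6, 22.7 to 28.3 and 24.9 to 27.9 CPM at 10, 30 and 100 ng/ml. Of the 7 tested, 2 were called higher at 10 ng/ml and none lower, where 15% and 14.2% of all tested genes were. Cd68 averaged 8.84 CPM at 10 ng/ml and 2.06 CPM in untreated cells (edgeR adjusted p = 5.55e-05), and Cd74 2.03 and 0.0602 CPM (edgeR adjusted p = 0.00255). With 6 counts in untreated cells, Cd74 passed the count filter through the TWEAK groups alone and could hardly be called lower. Lyz2, the largest part of the sum, averaged 14.2 CPM at 10 ng/ml and 9.54 CPM in untreated cells and was not called. Ptprc, the pan-leukocyte marker, averaged 0.0300 CPM in untreated cells and 0, 0.291 and 0.325 CPM at 10, 30 and 100 ng/ml. For 10 endothelial markers the sum was 10.4 to 10.97 CPM, then 28.7 to 32.5, 20.7 to 25.8 and 10.8 to 14.2 CPM, with Emcn and Tie1 at 0 throughout. Endothelium is another known source of Madcam1, Vcam1 and Icam1. Of the 5 endothelial markers tested, 2 were called higher and 1 lower at 10 ng/ml, where 15% and 14.2% of all tested genes were. Flt4 averaged 23.1 CPM at 10 ng/ml and 3.92 CPM in untreated cells (edgeR adjusted p = 0.000333), Cdh5 4.04 and 0.150 CPM (edgeR adjusted p = 4.07e-05) and Tek 1.46 and 4.74 CPM (edgeR adjusted p = 0.00146). Cdh5, with 15 counts in untreated cells, passed the count filter through the TWEAK groups alone and could hardly be called lower. Pecam1, a pan-endothelial marker under the count filter, averaged 0.287 CPM at 10 ng/ml and 0.0301 CPM in untreated cells. Of the other lists, 6 epithelial markers summed to 0.480 to 0.582 CPM in untreated libraries and at most 2.23 CPM under TWEAK. The 4 mesothelial markers summed to 12.6 to 13.2 CPM in untreated libraries and 4.42 to 6.07, 4.30 to 5.31 and 8.40 to 11.1 CPM at the rising doses. The 5 mural markers summed to 55.2 to 63.1 CPM, then 30.4 to 38.3, 33.7 to 40.7 and 46.9 to 52.5 CPM. Of these 5, 2 were called higher and 2 lower at 10 ng/ml, where 15% and 14.2% of all tested genes were. Rgs5, at 4.87 CPM against 0.561 CPM in untreated cells, and Cspg4, at 2.63 against 0.75 CPM, were higher. Myh11, at 13.0 against 26.8 CPM, and Cnn1, at 6.49 against 22.1 CPM, were lower. The 6 fibroblast markers summed to 19650 to 19950 CPM in untreated libraries and 9498 to 9548, 10360 to 11610 and 17410 to 18280 CPM at 10, 30 and 100 ng/ml. At 10 ng/ml 4 of the fibroblast markers were called lower, Col1a1, Col1a2, Col3a1 and Thy1, and 2 higher. Of all tested genes 14.2% were lower and 15% higher there. The 2 higher were Pdgfra at 1463 CPM, against 1263 CPM in untreated cells, and Dcn at 1500 CPM, against 1132 CPM. The part of these sums in the results above was not tested.

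The genes outside the 9 whose log2 CPM followed each member most closely over the 8 libraries were taken from 12285 candidates. These Pearson correlations describe libraries that share groups and are given with no p. Bcl3, an NF-kB cofactor, was closest to Madcam1 (r = 0.996), Prl2c2 to Spib (r = 0.995) before Spic of the lists above (r = 0.991), and Pole to Bst1 (r = 0.995). Grem1, a BMP antagonist in the list of reticular stroma markers, was closest to Tnfsf11 (r = 0.992), Cdh11, a cadherin of fibroblasts, to Vcam1 (r = 0.998), and Galnt18 to Icam1 (r = 0.9996) before Gsdmd and Tnip1 (r = 0.999 each). Likeness in shape did not mean likeness in size, since Bcl3 averaged 62.8 CPM at 10 ng/ml and 35.8 CPM in untreated cells. For Tnfsf13b and Cxcl13 the closest were Hmgb2 (r = 0.954) and Gtf3c4 (r = 0.966), neither of which differed much between groups, with means between 23.3 and 24.99 CPM for Hmgb2 and between 57.5 and 62.2 CPM for Gtf3c4.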

How the data were processed

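RNA was sequenced from 8 libraries of primary mouse lung fibroblasts, 2 in each of 4 groups taken from the sample titles. The authors deposited raw counts, whole reads per gene row, without normalization. STAR, StringTie and the mm10 build are named in the submitters' processing notes, with no version or role. Counting program, annotation and use of strand: not given in the sources used here.

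The table had 55335 rows, of which 3225 without a symbol (0.168% to 0.178% of counts) were left out of library sizes and tests. Where 1 of 80 symbols stood on several rows, the row with most counts carried it. Genes passing filterByExpr (17360) were scaled by TMM and entered edgeR's quasi-likelihood test (version 4.0.16, under R 4.3.3), all libraries in 1 fit with 4 residual degrees of freedom. Two-sided p-values were Benjamini-Hochberg adjusted over all tested genes, with a threshold of 0.05, and standard errors derived from the F statistic are approximate. P-values measure the spread between libraries, which may be technical. The chi-square per degree of freedom between libraries of 1 group was 23.6 to 29.1, above sampling noise, and none was treated as a duplicate.

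Levels are TMM-scaled CPM, and CPM per kb uses the exons of GENCODE M21 on mm10. Folds against 0 counts are bounds against 3 counts over the group, with the counts of the other group taken as exact. Intervals are 95% and cover counting error only. The 9 genes and the 7 lists of other genes and 7 of cell markers were chosen with earlier results of these data known. Each list of other genes gives up to 4 named genes, those called at 10 ng/ml with the lowest p, and Tnfrsf12a and Tnfsf12 are named too. The 3 genes most like each member were found among those with a mean of at least 1 CPM and no predicted name, and not all are reported here. Alternatives were DESeq2 1.42.0, limma-voom (limma 3.58.1), other scalings and filters, a fit of only the groups compared, a replicate block, and leaving out each library. Leaving out a library leaves its group with 1, which is then taken to vary as the other groups do. The fit was checked on simulated counts with 200 changed genes.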

Additional observations from a re-analysis of the deposited data

How the results depend on the processing

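With 2 libraries per group, leaving out 1 leaves a single library, whose spread is taken from the other groups. In such fits, the counts of all genes called ranged from 3392 to 4839 at 10 ng/ml against untreated cells, from 2540 to 3831 at 30 ng/ml and from 91 to 237 at 100 ng/ml. They ranged from 3 to 62 between 30 and 10 ng/ml, from 2406 to 3545 between 100 and 10 ng/ml and from 1380 to 2468 between 100 and 30 ng/ml. Of the 9 genes, 6 were called at 10 and at 30 ng/ml in every such fit, and 2 to 4 at 100 ng/ml. Between 100 and each lower dose, 5 to 7 were called. Of the other organiser genes, 7 to 13 were called at 100 ng/ml, and 0 to 2 between 30 and 10 ng/ml.

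DESeq2 called 598 genes and 22 other organiser genes at 100 ng/ml, and 127 genes between 30 and 10 ng/ml, where a fit of only these groups called 5. The sign of 7 uncalled changes turned when 1 library was left out, with values over the left-out libraries as follows. The log2 change of Tnfsf13b at 30 ng/ml against untreated ranged from -0.34 to 0.12, between 30 and 10 ng/ml from -0.11 to 0.34, and between 100 and 30 ng/ml from -0.25 to 0.21. That of Cxcl13 ranged from -0.93 to 1.01 at 30 ng/ml against untreated, from -1.79 to 0.15 between 30 and 10 ng/ml and from -1.79 to 0.15 between 100 and 30 ng/ml. That of Tnfsf11 between 30 and 10 ng/ml ranged from -0.35 to 0.062. No called change of the 9 genes turned its sign under any alternative run.

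No sign of pairing by replicate number was seen, as deviations of same-numbered libraries correlated at -0.0463 to 0.0282 over all tested genes. Such a correlation cannot exclude a shared source that affects few genes. With the replicate block, 4661, 3578 and 136 genes were called at 10, 30 and 100 ng/ml, and 6, 6 and 3 of the 9 genes, Icam1 at 100 ng/ml being the one not called. The causes of these differences were not tested. Depth limits the values of Ccl19 in all groups and of Madcam1, Bst1 and Spib in untreated cells.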
